A study of Drosophila simulans with 4 samples.

Results

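The amylases and maltases are the enzymes with which Drosophila simulans digests starch and its breakdown products. The genes were given by a list of 10 D. melanogaster identifiers, 3 amylases and 7 maltases, and 9 of them were found among the 15358 genes of the deposited values. These were the amylases Amy-p (FBgn0000079), Amy-d (FBgn0000078) and Amyrel (FBgn0020506), and the maltases Mal-A1 (FBgn0002570), Mal-A2 (FBgn0002569), Mal-A3 (FBgn0002571), Mal-A4 (FBgn0033294), Mal-A7 (FBgn0033296) and Mal-A8 (FBgn0033297). Mal-B1 (FBgn0032381) was not analysed here. All 9 genes had at least 130 reads in every library, and all were kept by each filter on low values.

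Transcripts of adult males were sequenced in 4 libraries, with 1 library for each population and medium. The Gotheron flies came from an apple orchard in the Rhône Valley, a derived European population, and were reared on apple (natural medium) or on cornmeal. The Mayotte flies came from a natural reserve in the ancestral range and were reared on banana (natural medium) or on cornmeal. Separate lines of wild-caught females were started on each medium, and their sons developed and aged on that medium. Each library held whole bodies of 100 males, each the son of a different wild-caught female, aged 7 days according to the sample labels. The study's methods give a shorter ageing time after emergence. No strain, mutation or drug was involved, and no library of females or of dissected guts was part of the comparison. The natural resource differed between the populations, and the study's methods state that the banana medium of Mayotte was contaminated by bacteria. An apple to banana difference, a bacterial load and a population difference therefore cannot be told apart on the natural media.

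Starch is digested in the midgut of flies in successive steps. Amylases cut the long glucose chains inside starch into short sugars such as maltose, and maltases, which are alpha-glucosidases, release glucose from the ends of these short sugars. In D. melanogaster, Amy-p and Amy-d are near-identical copies of the amylase gene, and amylase activity is known to fall when the food is rich in free sugars. The Mal-A genes of that species form a tandem cluster. In whole bodies, fewer cells of a type and less RNA per cell cannot be told apart.

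Values are normalised counts, that is, numbers of reads per gene scaled so that every library has the same total of 10052291.25. The reads come from the 3′ end of each transcript, so a long gene does not gain reads from its length. Recovered reads ranged from 9829895 to 10365609 per library. A single gene, the most abundant, accounted for 1.72% and 2.16% of the Gotheron reads and for 5.09% and 3.35% of the Mayotte reads (natural medium first). Over the 12508 genes whose 4-library mean reached 5, the median gene was 0.12 higher in Gotheron than in Mayotte on the log2 scale, and natural minus cornmeal had a median of -0.03.

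The 9 genes spanned a wide range of expression. Mal-A1 stood far above the others with a mean of 10348 normalised counts over the 4 libraries, and only 167 of all listed genes had a higher mean. It alone gave 56.9% to 63.2% of the reads of the 9 genes. Mal-A8 (2177) and Mal-A7 (1733) followed. Mal-A3 (867) and Amy-p (849) lay close together, at means that differed by less than the spread among the libraries of either gene. Mal-A2 (511), Amy-d (384), Amyrel (227) and Mal-A4 (179) were the lowest, and Mal-A4 was still above 62.1% of all genes. The 6 maltases summed to 13950 and 16709 normalised counts in the Gotheron natural and cornmeal libraries, and to 16186 and 16413 in the Mayotte natural and cornmeal libraries. The 3 amylases summed to 1370 and 2090 in Gotheron and to 1027 and 1351 in Mayotte. The reads counted for the 6 maltases therefore outnumbered those counted for the 3 amylases in all 4 libraries. Reads that match both Amy-p and Amy-d may not all have been counted, which was not tested.

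**Figure D1:**
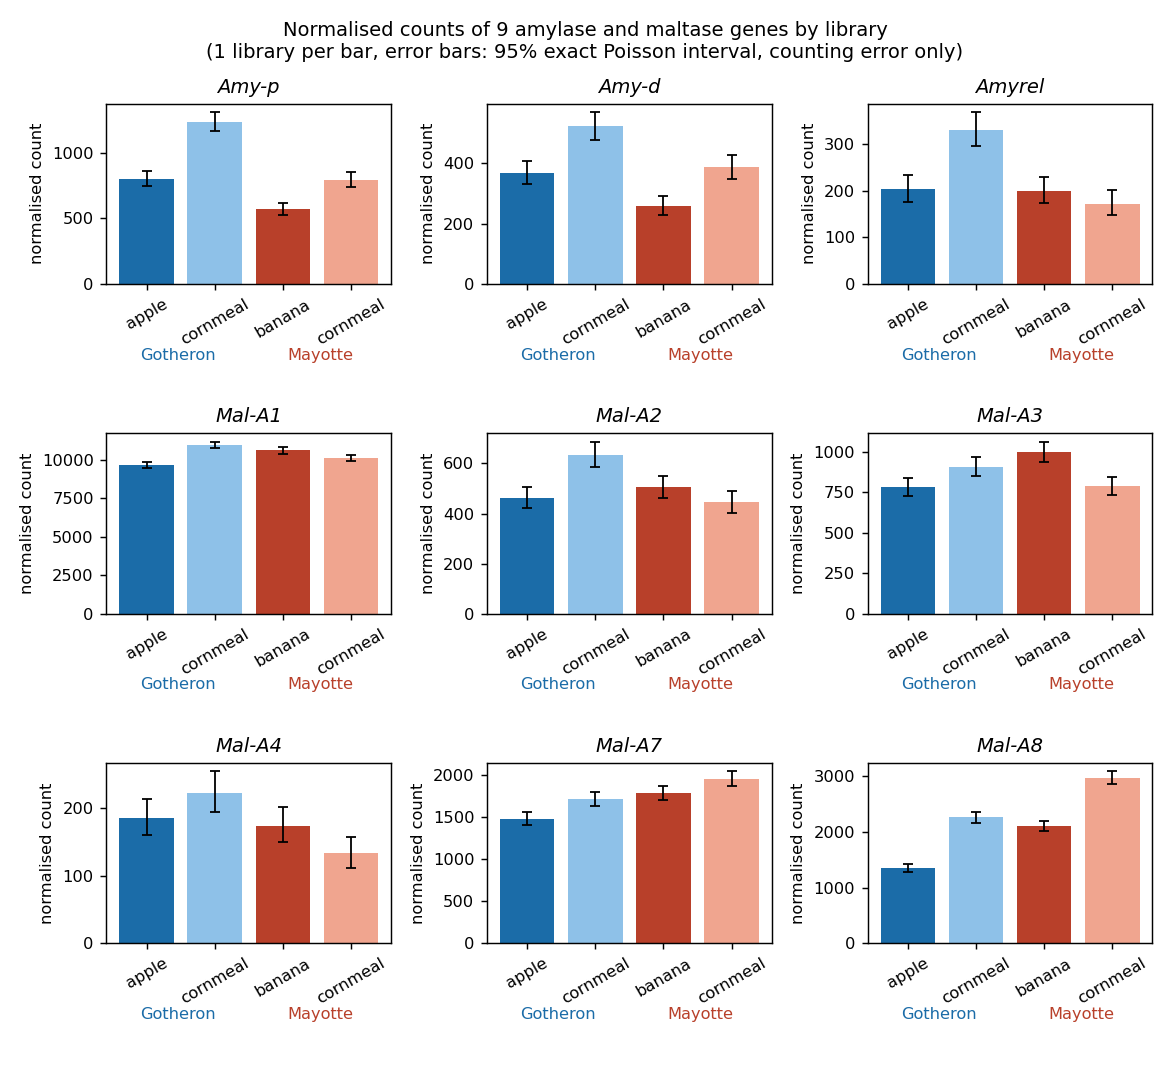
Normalised count (vertical axis, from 0, a separate scale in each panel) of the 9 genes in each of the 4 libraries, Gotheron on apple and on cornmeal, then Mayotte on banana and on cornmeal. Bars are single libraries and error bars are 95% exact Poisson intervals that cover counting error only. Amy-p stands at 799 and 1236 in Gotheron and at 567 and 792 in Mayotte, while Mal-A8 stands at 1353 and 2262 in Gotheron and at 2112 and 2979 in Mayotte.

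The first question was whether the populations differ in these genes. The amylases had the higher mean in Gotheron, by 1.38 to 1.50 times, and Mal-A8 and Mal-A7 had the higher mean in Mayotte. Only the difference of Amy-p passed the test. In the 2-step overdispersed Poisson procedure (Benjamini-Hochberg adjusted p under 0.05 over all listed genes, and both libraries of a population above both of the other), 1 of the 9 genes was called higher in Gotheron and 0 were called lower, with 5 at an unadjusted p under 0.05. Over all listed genes, 3.7% were called higher and 2.52% lower, and 18.6% had an unadjusted p under 0.05. With limma, 0 of the 9 were called and 1 had an unadjusted p under 0.05, where 1.09% of all genes were called and 14% had such a p. The median limma log2 difference of the 9 genes was 0.19, against 0.12 over all 12508 genes. It was 0.48 in the 3 amylases and -0.04 in the 6 maltases. Both Gotheron libraries lay above both Mayotte libraries in 3 of the 9 genes (Amy-p, Amyrel and Mal-A4), where 34.8% of all genes did so, and below them in Mal-A7, where 12.8% did. Shares given for limma or for the order of libraries are shares of the 12508 genes, and those of the 2-step procedure are shares of all listed genes.

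Amy-p, which encodes one of the digestive alpha-amylases, had 799 and 1236 normalised counts in Gotheron natural and cornmeal, against 567 and 792 in Mayotte natural and cornmeal. Both Gotheron libraries were above both Mayotte libraries, but the Gotheron natural library exceeded the Mayotte cornmeal library only slightly. Their 95% Poisson intervals overlapped (745 to 857 and 737 to 849), and the call needs this order of libraries. The means were 1018 ± 309 in Gotheron and 679 ± 159 in Mayotte (SD, n = 2 each). The 2 libraries of a population were on different media, so the SD includes the medium difference. Gotheron was 1.50 times Mayotte, with a log2 ratio of 0.58 (standard error 0.18, adjusted p = 0.026 in the 2-step procedure fitted across all genes). Within each medium the direction was the same. The ratio was 1.41 on the natural media (95% Clopper-Pearson interval 1.26 to 1.57) and 1.56 on cornmeal (1.43 to 1.71), where the intervals cover counting error between single libraries only. In limma, which takes the spread within each population and so includes the medium difference, the adjusted p was 0.36. With the medium as a further term, the limma adjusted p was 0.11. The call was also lost under TMM scaling, which aligns the libraries on the middle range of genes rather than on their totals (log2 ratio 0.46, adjusted p = 0.070), without the Gotheron cornmeal library (0.23, adjusted p = 0.52) and without the Mayotte natural library (0.36, adjusted p = 0.38). It was kept without the Gotheron natural library (0.86, adjusted p = 4.9e-05) and without the Mayotte cornmeal library (0.84, adjusted p = 0.012). Leaving out a library sets 1 library on 1 medium against 2 libraries on both media, so in every such fit, for each gene, population and medium cannot be told apart.

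Amy-d, the other copy, had 368 and 522 normalised counts in Gotheron natural and cornmeal, against 259 and 387 in Mayotte natural and cornmeal. The populations overlapped, since the Gotheron natural library was below the Mayotte cornmeal library, although Gotheron was higher within each medium. The ratio of the means was 1.38 (log2 0.46, standard error 0.19, adjusted p = 0.12 in the 2-step procedure). The value moved with each library left out. The log2 ratio was 0.19 without the Gotheron cornmeal library (adjusted p = 0.64) and 0.20 without the Mayotte natural library (adjusted p = 0.69), while it was 0.69 without the Gotheron natural library (adjusted p = 0.0052) and 0.78 without the Mayotte cornmeal library (adjusted p = 0.026), and the gene was called in these last fits. Short reads can be shared between copies this alike, so the split of reads between Amy-p and Amy-d is uncertain. The ratio of Amy-p over Amy-d was 2.17 and 2.37 in Gotheron and 2.19 and 2.05 in Mayotte, and the 4 counting intervals, from 1.81 at the lowest to 2.63 at the highest, all overlapped. Taken as 1 gene, the pair had 1167 and 1759 normalised counts in Gotheron and 826 and 1178 in Mayotte. The log2 ratio of this sum was 0.55 with an adjusted p of 0.044 in the 2-step procedure, but the sum was not called because the Gotheron natural library lay below the Mayotte cornmeal library.

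Amyrel, a diverged relative of the amylase genes, had 203 and 331 normalised counts in Gotheron natural and cornmeal, against 201 and 173 in Mayotte natural and cornmeal. The Gotheron cornmeal library stood alone above 3 similar ones. The ratio of the means was 1.43 (log2 0.52, standard error 0.20, adjusted p = 0.094 in the 2-step procedure). The single-library ratio was 1.92 on cornmeal (1.59 to 2.32) and 1.01 on the natural media (0.83 to 1.23). Without the Gotheron cornmeal library the log2 ratio was 0.12 (adjusted p = 0.79), and without the Gotheron natural library it was 0.83 and the gene was called (adjusted p = 0.0012). It was 0.63 without the Mayotte natural library (adjusted p = 0.097) and 0.41 without the Mayotte cornmeal library (adjusted p = 0.39).

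Mal-A8, a maltase of the Mal-A cluster, ran the other way. It had 1353 and 2262 normalised counts in Gotheron natural and cornmeal, against 2112 and 2979 in Mayotte natural and cornmeal. Gotheron was lower within each medium, at 0.641 times Mayotte on the natural media (0.598 to 0.686) and 0.759 times on cornmeal (0.718 to 0.803), but the populations overlapped because cornmeal values in Gotheron exceeded banana values in Mayotte. The log2 ratio of the means was -0.49 (standard error 0.19, adjusted p = 0.091 in the 2-step procedure, 0.42 in limma), which did not pass. With the medium as a further term, the limma adjusted p was 0.18. Under TMM scaling the log2 ratio was -0.62 and Mal-A8 was called lower in Gotheron in the 2-step procedure (adjusted p = 0.0066), with similar values under median-of-ratios scaling (-0.62, adjusted p = 0.0074). It was also called without the Gotheron cornmeal library (-0.91, adjusted p = 0.0014) and without the Mayotte natural library (-0.72, adjusted p = 0.0082). Without the Gotheron natural library the log2 ratio was only -0.17 (adjusted p = 0.65), and without the Mayotte cornmeal library it was -0.22 (adjusted p = 0.66). Amy-p was not called under either scaling. Relative to the median of all genes, the limma log2 difference was 0.45 for Amy-p and -0.64 for Mal-A8. The call among the 9 genes thus changed with the way the libraries were scaled, while the directions of both genes did not. With totals equal without the 10 most abundant genes, an alternative chosen after seeing the data, neither gene was called. There the populations overlapped in both genes (Mal-A8 log2 -0.55, adjusted p = 0.030 in the 2-step procedure).

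Mal-A7, another maltase of the cluster, had 1480 and 1714 normalised counts in Gotheron, against 1782 and 1955 in Mayotte (natural, then cornmeal). Both Gotheron libraries were below both Mayotte libraries, yet the difference was small, with a log2 ratio of -0.23 (standard error 0.18, adjusted p = 0.55 in the 2-step procedure). Mal-A4, the lowest maltase, had 185 and 223 normalised counts in Gotheron, against 174 and 133 in Mayotte. Its populations did not overlap either, at a log2 ratio of 0.41 (standard error 0.20, adjusted p = 0.25 in the 2-step procedure). On the natural media the difference of Mal-A4 lay within counting error (Gotheron 1.07 times Mayotte, counting interval 0.865 to 1.32). Mal-A1, Mal-A2 and Mal-A3, first described in D. melanogaster as larval visceral proteins, overlapped between the populations.

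For Mal-A1 the means were 10329 ± 906 in Gotheron and 10366 ± 355 in Mayotte (SD, n = 2 each), a ratio of 0.996. The standard error allowed ratios from 0.741 to 1.34 (95% Wald interval), which is wide because the smoothed dispersion grows with the mean. The difference between the population means was smaller than the spread within either population, which includes the difference between media. Mal-A2 had 461 and 635 normalised counts in Gotheron natural and cornmeal, against 504 and 445 in Mayotte natural and cornmeal (log2 ratio 0.21, standard error 0.18, adjusted p = 0.56). Mal-A3 had 781 and 905 in Gotheron, against 997 and 786 in Mayotte (log2 ratio -0.08, standard error 0.18, adjusted p = 0.86). In both genes the order of the populations was opposite on the natural media and on cornmeal.

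**Figure D2:**
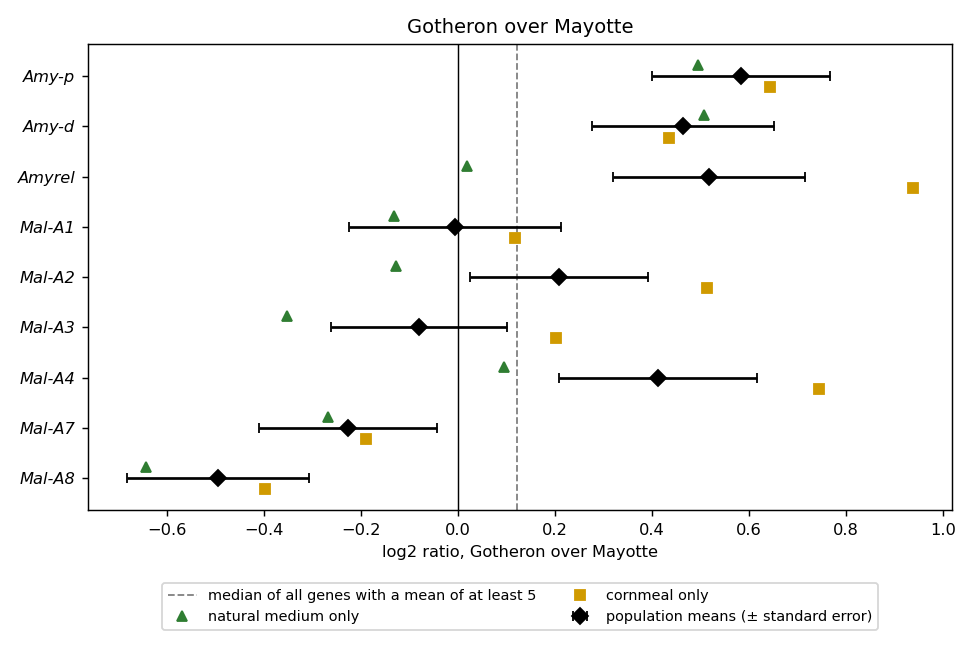
Log2 ratio of Gotheron over Mayotte (horizontal axis) for each of the 9 genes. Diamonds are ratios of population means with the standard error of the 2-step procedure, triangles and squares are single libraries on the natural media and on cornmeal, and the dashed line is the median of the 12508 genes (0.12). The amylases lie to the right, at 0.46 to 0.58 for the means, and Mal-A7 and Mal-A8 to the left, at -0.23 and -0.49.

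The second question was whether the medium moved these genes. On apple in Gotheron, all 9 genes had a lower value than on cornmeal, and on banana in Mayotte 4 of the 9 did. Over the 12508 genes, 53.3% were lower on apple in Gotheron and 53.9% lower on banana in Mayotte. The median log2 difference of the 9 genes was -0.46 in Gotheron, against -0.02 over all genes, and 0.07 in Mayotte, against -0.03 over all genes. Each of these comparisons sets 1 library against 1, so it has no replicate check, and the 9 genes share their libraries. In the test of natural over cornmeal with population as a term, 0 of the 9 genes passed in the 2-step procedure, where 0.475% of all genes were called lower and 0.749% higher, and 3 of the 9 had an unadjusted p under 0.05, against 9.94% of all genes. With limma 0 of the 9 passed as well, where 0.016% of all genes did, and 3 had an unadjusted p under 0.05, against 6.89% of all genes.

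These 3 genes were Amy-p, Amy-d and Mal-A8, the members with the lowest natural over cornmeal ratio in the means, and each was lower on the natural medium in both populations. For Amy-p the value on apple was 0.647 times that on cornmeal in Gotheron (counting interval 0.591 to 0.707), and the value on banana was 0.717 times that on cornmeal in Mayotte (0.643 to 0.799). Its log2 ratio over both populations was -0.57 (standard error 0.18, adjusted p = 0.089 in the 2-step procedure, 0.52 in limma). Amy-d gave almost the same figures, with 0.704 times in Gotheron (0.614 to 0.806) and 0.670 times in Mayotte (0.571 to 0.786). Its log2 ratio was -0.54 (standard error 0.19, adjusted p = 0.15 in the 2-step procedure, 0.53 in limma). The sum of both copies gave -0.56 with an adjusted p of 0.10 in the 2-step procedure.

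Mal-A8 had the lowest ratio of the 9 genes on apple, 0.598 times cornmeal in Gotheron (0.559 to 0.640). On banana in Mayotte it was 0.709 times cornmeal (0.67 to 0.75). The log2 ratio over both populations was -0.60 (standard error 0.19, adjusted p = 0.075 in the 2-step procedure, 0.51 in limma). In no case did the counting interval of these 3 genes reach 1, so the single-library differences exceeded counting error, while the spread between libraries of one condition was not measured. Under TMM scaling Amy-p (-0.55, adjusted p = 0.048) and Mal-A8 (-0.57, adjusted p = 0.045) passed the 2-step threshold, and with the dispersion taken within populations Amy-p, Amy-d and Mal-A8 did, at adjusted p-values of 0.0014, 0.0056 and 9.3e-04.

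Mal-A7 was also lower on the natural medium in both populations, but by little, at 0.863 times in Gotheron (0.805 to 0.926) and 0.912 times in Mayotte (0.855 to 0.972). With Mal-A7, 4 of the 9 genes were lower on the natural medium in both populations, where 29.6% of all genes were, and 0 were higher in both, where 22.4% were. Both natural libraries lay below both cornmeal libraries in Amy-d and Mal-A8, 2 of the 9 genes, where 15.2% of all genes did so, and above them in 0, where 12.5% did so.

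**Figure D3:**
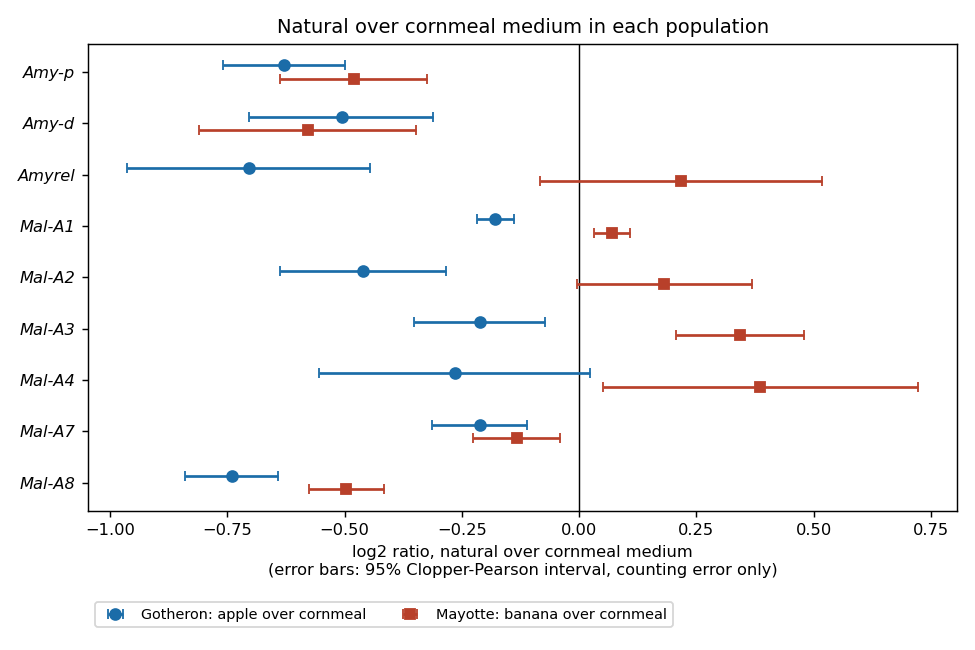
Log2 ratio of the natural medium over cornmeal (horizontal axis) for each of the 9 genes, apple in Gotheron (circles) and banana in Mayotte (squares), 1 library against 1. Error bars are 95% Clopper-Pearson intervals that cover counting error only. All 9 circles are below 0, while Amyrel, Mal-A1, Mal-A2, Mal-A3 and Mal-A4 have squares above 0.

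The other 5 genes had opposite signs on the natural media of the populations, where 48% of all genes did. Amyrel was 0.614 times cornmeal on apple in Gotheron (0.513 to 0.734) and 1.16 times cornmeal on banana in Mayotte (0.943 to 1.43). Mal-A2 was 0.727 times on apple (0.643 to 0.821) and 1.13 times on banana (0.996 to 1.29). In both genes the counting interval excluded 1 in Gotheron and included it in Mayotte. Mal-A3 was 0.863 times on apple (0.783 to 0.951) and 1.27 times on banana (1.15 to 1.39), and Mal-A1 was 0.883 times on apple (0.859 to 0.908) and 1.05 times on banana (1.02 to 1.08). Both exceeded counting error in each direction. Mal-A4 was 0.832 times on apple (0.681 to 1.02) and 1.31 times on banana (1.04 to 1.65).

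Whether the medium difference itself differed between the populations was tested as an interaction in the 2-step procedure. For 0 of the 9 genes did the test pass, against 0.508% of all genes, and Amyrel was the only one of them with an unadjusted p under 0.05, against 7.42% of all genes. The apple over cornmeal ratio of Amyrel in Gotheron was 0.529 times its banana over cornmeal ratio in Mayotte (log2 -0.92, standard error 0.40, adjusted p = 0.54). Mal-A4 (log2 -0.65), Mal-A2 (-0.64) and Mal-A3 (-0.55) followed, with adjusted p-values from 0.76 to 0.82. For Amy-p and Amy-d the interaction was -0.15 and 0.07 on the log2 scale, each with a standard error of 0.38, so ratios of ratios from 0.542 to 1.50 and from 0.626 to 1.76 are within the 95% Wald interval. With 1 library in each population and medium, an effect of the medium cannot be told apart from a single unusual library.

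**Figure D4:**
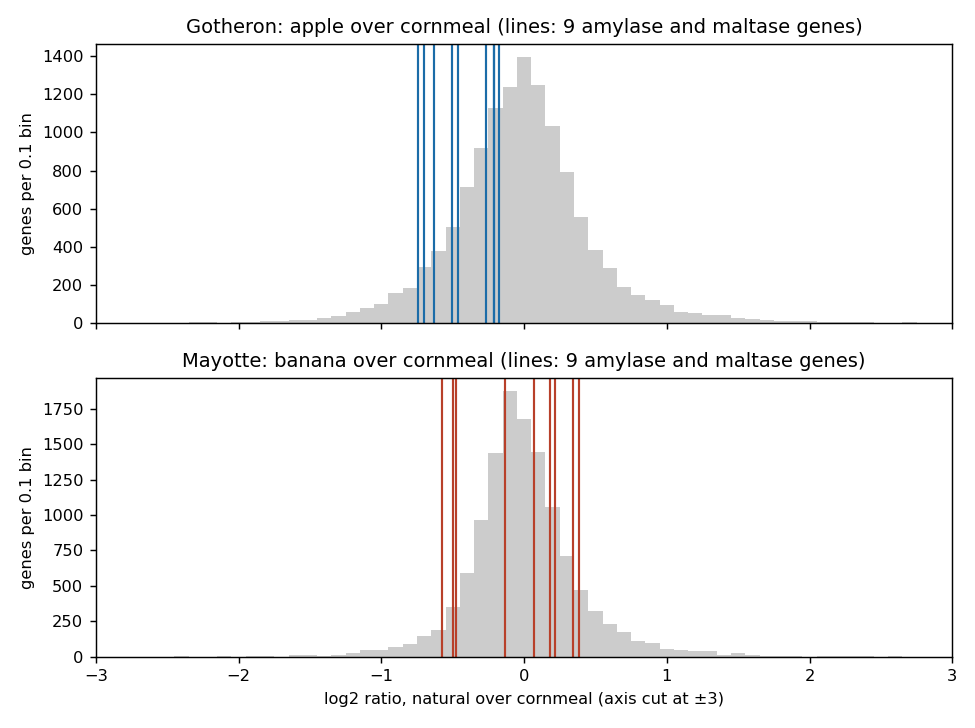
Number of genes (vertical axis) by log2 ratio of natural over cornmeal (horizontal axis, bins of 0.1) in Gotheron, above, and Mayotte, below, for the 12508 genes whose mean reached 5. Vertical lines are the 9 amylase and maltase genes, which lie from -0.74 to -0.18 in Gotheron and from -0.58 to 0.38 in Mayotte.

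The library that most often held the highest value of these genes was Gotheron on cornmeal. It held the highest value of the 4 in 6 of the 9 genes (Amy-p, Amy-d, Amyrel, Mal-A1, Mal-A2 and Mal-A4), where 35.7% of all genes had their highest value in it. The 9 genes together took 0.187% of its reads, against 0.152% in Gotheron natural, 0.171% in Mayotte natural and 0.177% in Mayotte cornmeal. The Gotheron natural library thus had the lowest share, and it held the lowest value for Mal-A1, Mal-A3, Mal-A7 and Mal-A8. On the cornmeal medium shared by both populations, 7 of the 9 genes were higher in Gotheron than in Mayotte, where 62.7% of all genes were. On the natural media 4 of the 9 were, where 63.1% of all genes were. The exceptions on cornmeal were Mal-A7 (0.877 times Mayotte, counting interval 0.821 to 0.936) and Mal-A8.

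The genes also differed in how far they moved. The highest library was 2.20 times the lowest for Mal-A8, 2.18 times for Amy-p and 2.02 times for Amy-d, but 1.13 times for Mal-A1. Between these lay Amyrel (1.92), Mal-A4 (1.68), Mal-A2 (1.43), Mal-A7 (1.32) and Mal-A3 (1.28). Mal-A1, the most abundant of the maltases analysed, thus had the smallest ratio of the 9 genes in these libraries. These ratios make no allowance for counting error, which weighs more on genes with fewer reads. Among maltases of the cluster, Mal-A8 and Mal-A1 took opposite ends of this range.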

How the data were processed

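Normalised counts per gene of 4 libraries were analysed. Reads had been trimmed with seqclean and mapped with ELAND to the D. melanogaster and then the D. simulans genome, and counts had been moved to the D. melanogaster ortholog. Genome builds are not stated in the paper, labels or file, and the submitters' processing notes name CASAVA. The file the authors deposited holds a signal, read counts times 1 factor per library. All entries (100%) were whole within 0.01 once divided by their library's lowest value above 0. For the Gotheron natural library, whose factor is 0.997, this recovery failed an automatic test, so count tests left that library out, and only read totals and counting intervals use its reads.

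The 2-step method was written in R 4.3.3. Pearson dispersions around the 4-library mean were smoothed by loess (span 0.75, degree 2, floor 1) on the log scale. Likelihood ratio tests of population, of medium with population, and of their interaction then ran on all 15358 genes, with Benjamini-Hochberg adjustment at 0.05. A medium call needed the same direction in both populations. Limma 3.58.1 with a trended prior ran on log2(value + 1) where the mean reached 5, with population as a term for the medium, and its log2 differences understate low genes. The 95% intervals between single libraries cover counting error only, since reads carry no molecular identifiers. Libraries of a population differ in medium, so p-values rest on a spread shared across genes.

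The members and lists were chosen with earlier results of these data known. All members found are named, and no other gene is, since no reference that pairs the identifiers with names or sequences was available here. For the same reason no other pathway genes, tissue markers or sequences are given. Alternatives covered dispersions, tests, scalings, filters, pseudocounts, prior variances, blocks and single libraries left out.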

Additional observations from a re-analysis of the deposited data

How the results depend on the processing

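Replicate 1 is the cornmeal and replicate 2 the natural library of a population. The 956 genes called between populations became 2039 with the dispersion within populations. On the recovered reads of 3 libraries, where Gotheron has 1 library assumed to vary like Mayotte, edgeR 4.0.16 called 516 of 12122 genes and DESeq2 1.42.0 called 228. With each library left out the count ran from 746 to 1465, the highest without Gotheron replicate 1. Calls higher and lower in Gotheron numbered 569 and 387, but 406 and 627 under TMM scaling and 410 and 610 under median-of-ratios scaling. With totals equal without the 10 most abundant genes, an alternative chosen after seeing the data, they numbered 483 and 483, and Amy-p (log2 0.53, adjusted p = 0.032) was not called because its populations overlapped. The 136 limma calls became 34 with no filter, 13 with 1 prior variance, 314 with the medium as a replicate block, and 61 to 1086 with each library left out. The labels give no replicate numbers, and in the 2-step procedure a medium term leaves the population test as it is, by construction. The 188 medium calls became 631 with the dispersion within populations and 108 to 491 with each library left out, where 1 population alone is compared. The 2 limma calls for the medium became 8 under TMM scaling, 0 with no filter (696 at an unadjusted p under 0.05), 0 with 1 prior variance (761) and 0 with no replicate block (287), against 188 in the 2-step procedure. The 78 interactions became 375 with the dispersion within populations, 121 under TMM and 122 under median-of-ratios scaling. The causes were not tested.

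Of 420 alternative values of the 9 genes, 399 kept their sign. Many could not change it, since other dispersions, tests, filters on low values, prior variances and blocks leave a log2 ratio nearly or exactly as it is. For the medium, leaving out either library of a population gives the same log2 ratio, which was counted each time. The values that changed sign belonged to genes that were not called. With each library left out, the population log2 ratio ran from -0.098 to 0.082 in the 2-step procedure and from -0.097 to 0.082 in limma for Mal-A1, from -0.040 to 0.42 and from -0.038 to 0.42 for Mal-A2, and from -0.24 to 0.10 and from -0.25 to 0.10 for Mal-A3. The medium log2 ratio, then that of 1 population, ran from -0.70 to 0.22 for Amyrel, -0.18 to 0.070 for Mal-A1, -0.46 to 0.18 for Mal-A2, -0.21 to 0.34 for Mal-A3 and -0.27 to 0.38 for Mal-A4. The interaction of Amy-d, 0.07, was -0.080 for the sum of both copies. In the 2-step procedure and the count tests, Amy-p was called higher in Gotheron under 7 of 14 alternatives, Mal-A8 lower under 4 of 13, Amy-d higher under 2 of 14 and Amyrel higher under 2 of 13. In limma each of these 4 genes was called under 1 of 10 alternatives, a library left out. At this depth the Gotheron against Mayotte difference of Amyrel, Mal-A2 and Mal-A4 on the natural media lay within counting error.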
